A study of Glycine max with 12 samples.

Results

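Transcripts of 6 soybean (Glycine max) genes, grouped here as salicylate defence genes, were followed in leaves under manganese (Mn) supply. They are 2 copies of NPR1, 2 copies of PR1, 1 PR2 beta-glucanase gene and 1 PR3 chitinase gene. The 6 were chosen by gene ID out of the 39811 genes listed in the deposited table, with earlier results of these data known. Their names are those under which the IDs were chosen, since neither the deposited table nor the RefSeq gene table used here pairs the IDs with names. The 12 libraries form 4 groups of 3, which are old leaves at 100 µM Mn, old leaves at 5 µM Mn, young leaves at 100 µM Mn and young leaves at 5 µM Mn. Plants of all groups were put into these solutions as the fifth leaf stage began, and Mn was given as the sulfate, with 5 µM as the normal level. Cultivar, harvest time and plants per library were not stated in those labels. Nothing in the labels says that replicates came from separate plants, so p-values measure the spread between these libraries, which may be partly technical. The extraction text speaks of nodules while every sample is labelled as leaf, and with no names paired to the IDs the leaf label could not be checked against marker genes.

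Salicylic acid is the plant hormone that switches on defence against biotrophic pathogens, locally and in distant leaves. In Arabidopsis, NPR1 binds salicylate and acts in the nucleus as a coactivator with TGA transcription factors, and PR1 is among its best known targets. PR1 is a small secreted protein of the CAP family with antimicrobial activity and the usual marker of a salicylate response. PR2 proteins are secreted glucanases that cleave beta-glucans of fungal and oomycete walls, and PR3 proteins are chitinases that cleave chitin. Levels are given in FPKM, which are fragment numbers divided by the length of the gene and by the size of the library, so that levels of different genes can be set side by side.

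The 4 groups did not vary alike. The fragment totals per library, solved from the FPKM values, were 17774122 to 21070730. Listed genes made up 99.99 to 100% of them, so they count fragments assigned to genes and not all fragments sequenced. Replicates correlated across genes at r = 0.944 to 0.967 in old leaves at 5 µM, against 0.974 to 0.986 elsewhere. A gene's SD between replicates, on log2(FPKM + 1), had a median of 0.266 in that group, against 0.136 to 0.142 elsewhere. Its replicate 3 was the highest of the 3 libraries for 60.1% of the 28267 tested genes, and replicate 2 of young leaves at 5 µM was the highest for 45% of them. Both libraries bear on the PR genes and are named beside the results they touch.

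The NPR1 copy Glyma.09G020800 (listed as Glyma.09G020800.Wm82.a2.v1) was lower at 100 µM Mn in both leaf ages. Its level was 28.4, 19.0 and 21.9 FPKM in old leaves at 100 µM, against 43.4, 57.9 and 51.4 FPKM in old leaves at 5 µM. In young leaves it was 14.7, 18.3 and 23.0 FPKM at 100 µM, against 28.9, 28.4 and 24.9 FPKM at 5 µM. Libraries of the Mn levels did not overlap in either leaf age. The log2 change, taken on log2(FPKM + 1) throughout, was -1.12 in old leaves (SE 0.18, adjusted p = 0.0027 in limma) and -0.55 in young leaves (SE 0.18, adjusted p = 0.039). A leaf is a mixture of cell types, and in such samples fewer cells of a type and less RNA per cell cannot be told apart. The fall in old leaves was called under each of the 22 alternative settings run, and that in young leaves under 14 of them. The adjusted p in young leaves was between 0.091 and 0.14 without replicate 1 or 2 at 100 µM or without replicate 1 or 2 at 5 µM. It was 0.068 without replicate 3 at 5 µM and 0.052 without replicate 3 of old leaves at 100 µM.

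The other NPR1 copy, Glyma.15G127200 (listed as Glyma.15G127200.Wm82.a2.v1), did not pass the test for Mn in either leaf age. It had 27.0, 21.7 and 21.1 FPKM in old leaves at 100 µM, against 24.2, 31.0 and 32.8 FPKM in old leaves at 5 µM. These groups overlapped, and the log2 difference was -0.32 (95% interval -0.65 to 0.02, adjusted p = 0.18 in limma). In young leaves it had 10.8, 12.9 and 14.8 FPKM at 100 µM, against 9.107, 10.23 and 8.824 FPKM at 5 µM. All 3 libraries at 100 µM lay above those at 5 µM, with a log2 difference of 0.41 (95% interval 0.07 to 0.74, adjusted p = 0.057). That difference was called under 7 of the 22 alternatives, and it was 0.09 (adjusted p = 0.71) after rescaling by median-of-ratios factors.

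The balance between the NPR1 copies differed with Mn and with leaf age, a comparison chosen after the values were seen. The ratio of Glyma.09G020800 to Glyma.15G127200 in FPKM was 1.05, 0.875 and 1.04 in old leaves at 100 µM, against 1.79, 1.86 and 1.57 in old leaves at 5 µM. In young leaves it was 1.36, 1.42 and 1.55 at 100 µM, against 3.17, 2.77 and 2.82 at 5 µM. The copies were thus about equal in old leaves at 100 µM, while Glyma.09G020800 was the more abundant one in each library of the other groups. The mean log2 ratio was lower at 100 µM by -0.82 in old leaves and by -1.02 in young leaves, at an exact permutation p of 0.005 over both leaf ages (2-sided, labels permuted within leaf age). It was lower in old than in young leaves by -0.55 at 100 µM and by -0.75 at 5 µM, and here too the exact permutation p was 0.005, the least that 400 arrangements allow. Adjusted over the 4 tests of copy balance both p-values were 0.01. That adjustment does not cover the choice of the comparison after the values were seen. Neither test changed its call when any library was left out, which follows from ratios that did not overlap in any of these pairs of groups. A ratio within a library does not depend on how the libraries are scaled, but fragments that match both copies could be assigned to either, and how the authors treated them is not stated.

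**Figure D1:**
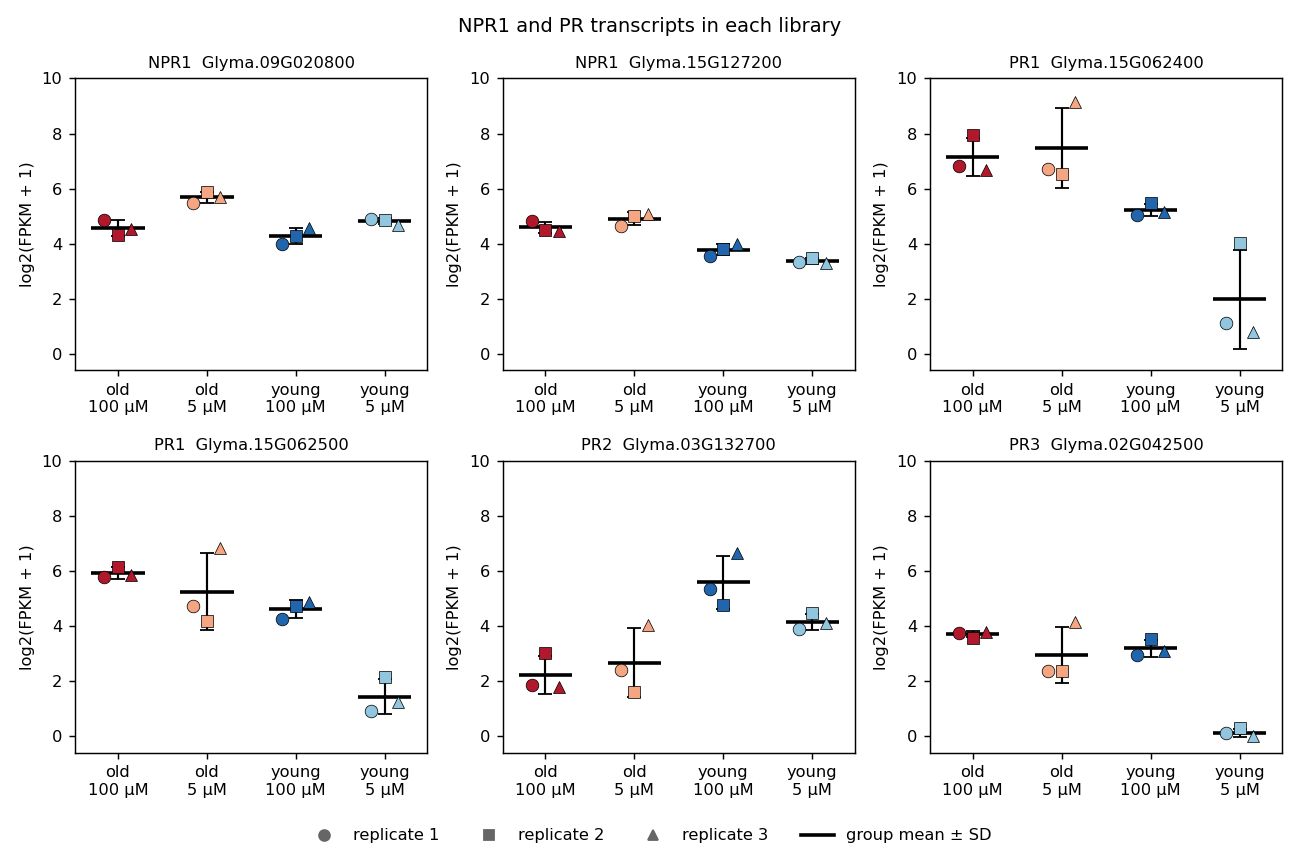
Level of each gene as log2(FPKM + 1) in the 12 libraries, by group, with symbols for the replicate number and black bars for the group mean ± SD (n = 3). In old leaves at 5 µM, replicate 3 is the highest for all 4 PR genes, and in young leaves at 5 µM PR3 lies at 0 to 0.223 FPKM.

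**Figure D2:**
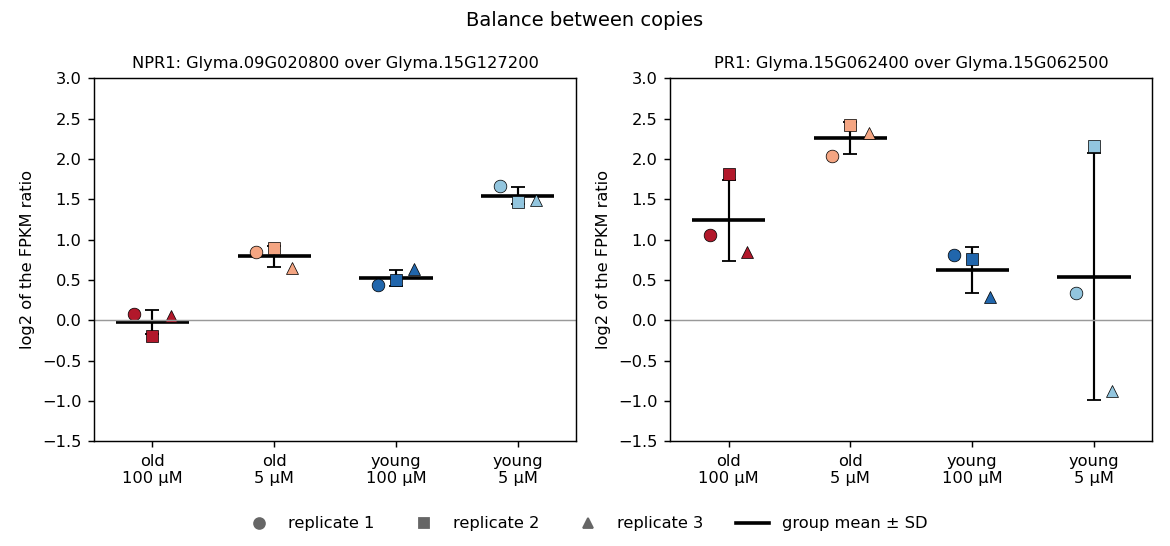
Log2 of the FPKM ratio between the NPR1 copies (left) and between the PR1 copies (right) in each library, with group mean ± SD (n = 3). For NPR1 the 100 µM libraries lie below the 5 µM libraries in each leaf age, while for PR1 the 3 young-leaf libraries at 5 µM spread from a ratio of 0.543 to 4.49.

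Both PR1 genes rose with Mn in young leaves, and Glyma.15G062400 (listed as Glyma.15G062400.Wm82.a2.v1) had the highest mean level of the 6 in old leaves. It had 31.6, 43.1 and 34.5 FPKM in young leaves at 100 µM, against 1.15, 15.4 and 0.733 FPKM in young leaves at 5 µM. All libraries at 100 µM were higher, and at 5 µM replicate 2 stood at 16.4 times the mean of the other libraries. The log2 change was 3.24 (SE 0.83, adjusted p = 0.014 in limma). It was 4.26 without that library (adjusted p = 0.0024), while without replicate 1 or 3 at 5 µM it was 2.80 (adjusted p = 0.053) or 2.64 (adjusted p = 0.062). In old leaves the gene had 111, 247.5 and 101.5 FPKM at 100 µM, against 105, 92.2 and 564 FPKM at 5 µM. These groups overlapped, and the log2 difference of -0.32 (95% interval -2.150 to 1.504, adjusted p = 0.84) leaves both a fall and a rise of 2-fold within its interval.

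Glyma.15G062500 (listed as Glyma.15G062500.Wm82.a2.v1), whose ID is the next PR1 ID on chromosome 15, had 18.0, 25.4 and 28.2 FPKM in young leaves at 100 µM, against 0.91, 3.43 and 1.35 FPKM in young leaves at 5 µM. Replicate 2 was again the highest library at 5 µM, and it still lay below every library at 100 µM. The gene rose by 3.17 on the log2 scale (SE 0.55, adjusted p = 0.0023 in limma), and each of the 22 alternatives called it. In old leaves it had 53.4, 70.5 and 56.3 FPKM at 100 µM, against 25.5, 17.2 and 113 FPKM at 5 µM. The log2 difference there was 0.67 (95% interval -0.53 to 1.88, adjusted p = 0.45), with replicate 3 at 5 µM above all libraries at 100 µM and the other libraries at 5 µM below them all. Without replicate 3 at 5 µM the log2 change was 1.47 (adjusted p = 0.011).

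The PR1 copies did not keep one ratio, in a comparison that was also chosen after the values were seen. Glyma.15G062400 stood at 2.46 ± 0.916 times the FPKM of Glyma.15G062500 in old leaves at 100 µM and at 4.83 ± 0.641 times in old leaves at 5 µM (SD, n = 3). Young leaves had ratios of 1.56 ± 0.294 at 100 µM and, with replicate 2 alone at 4.49, of 2.099 ± 2.102 at 5 µM (SD, n = 3). The mean log2 ratio differed with Mn by -1.02 in old leaves, where the libraries did not overlap, and by 0.08 in young leaves, where they did. Over both leaf ages the Mn difference in log2 ratio was -0.47 (exact permutation p = 0.385), and -0.83 without replicate 3 of young leaves at 5 µM (exact permutation p = 0.045). Old leaves had the higher log2 ratio, by 1.17 over both Mn levels (exact permutation p = 0.02, adjusted over the 4 tests 0.0267). That p was 0.06 to 0.085 without any 1 of the 3 old-leaf libraries at 5 µM or without replicate 3 of young leaves at 100 µM. At 5 µM the young-leaf ratios rest on 14 to 294 fragments per gene and library.

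PR2 was the one gene of the 6 with its highest level in young leaves. Glyma.03G132700 (listed as Glyma.03G132700.Wm82.a2.v1) had 39.9, 26.3 and 98.8 FPKM in young leaves at 100 µM, against 13.7, 21.1 and 16.2 FPKM in young leaves at 5 µM. The libraries at 100 µM were all higher but spread widely, and the log2 difference was 1.44 (95% interval 0.12 to 2.76, adjusted p = 0.08 in limma), which did not pass. It passed under 5 of the 22 alternatives, with adjusted p-values of 0.024 to 0.046. In old leaves PR2 had 2.59, 7.07 and 2.46 FPKM at 100 µM, against 4.27, 2.03 and 15.4 FPKM at 5 µM. The old-leaf groups overlapped (log2 difference -0.46, 95% interval -1.78 to 0.86, adjusted p = 0.66), and without replicate 3 at 5 µM the difference was 0.22 (adjusted p = 0.8).

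PR3 was close to its detection limit in young leaves at 5 µM and clearly present in the other groups. Glyma.02G042500 (listed as Glyma.02G042500.Wm82.a2.v1) had 6.743, 10.51 and 7.509 FPKM in young leaves at 100 µM, against 0.0738, 0.223 and 0 FPKM in young leaves at 5 µM. These values are 197, 326 and 233 fragments at 100 µM, against 2, 7 and 0 fragments at 5 µM. As a share of all fragments the group sums of 756 and 9 differed 82.7-fold (exact 95% interval 43.3 to 181.5, which covers counting error only). The log2 change was 3.06 (SE 0.38, adjusted p = 0.00048 in limma). Its size depends on the value added before the logarithm, with 5.53 for a pseudocount of 0.1, 1.37 for 5 and 6.85 in limma's voom on fragments, and all 22 alternatives called it. In old leaves PR3 had 12.4, 10.9 and 12.8 FPKM at 100 µM, against 4.16, 4.12 and 16.6 FPKM at 5 µM. The log2 difference was 0.75 (95% interval -0.09 to 1.58, adjusted p = 0.21), and without replicate 3 at 5 µM it was 1.34 (adjusted p = 0.00085).

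**Figure D3:**
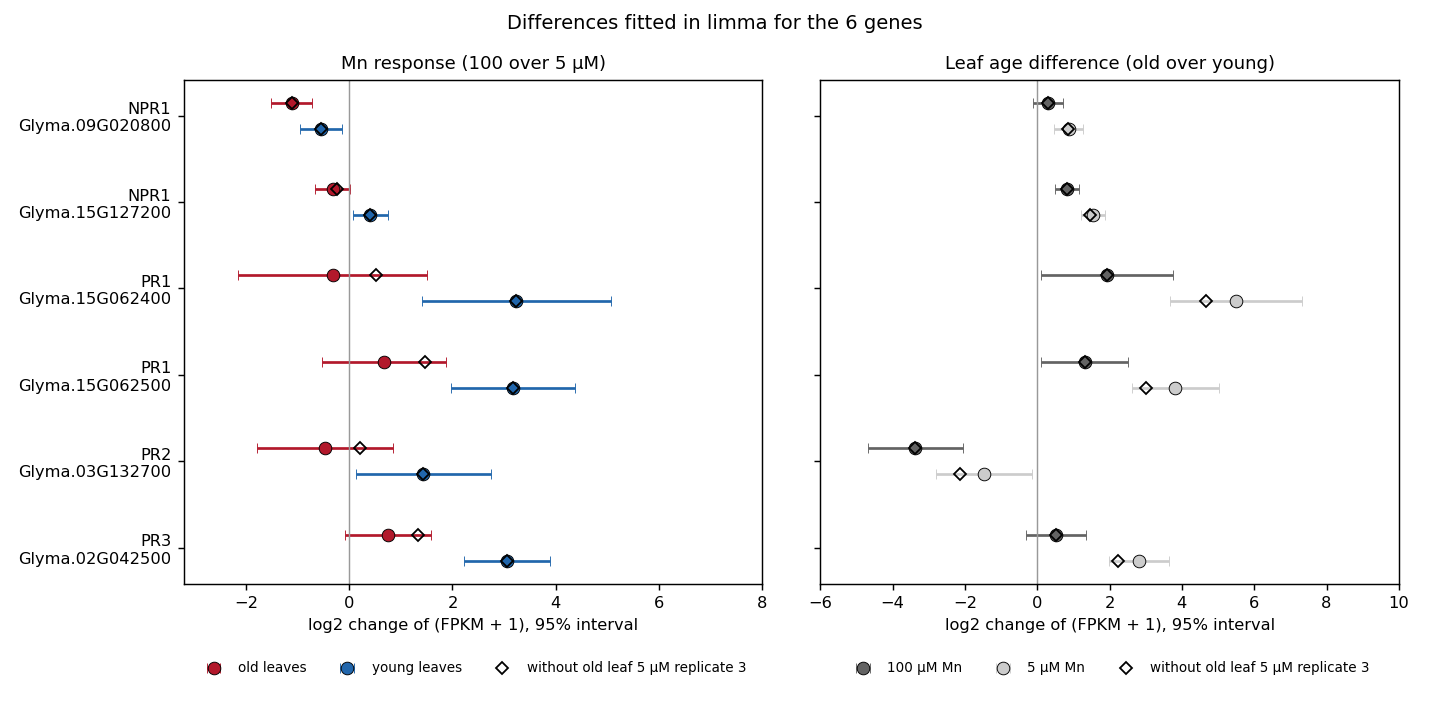
Log2 change of (FPKM + 1) for the 6 genes with its 95% interval, for Mn in old and young leaves (left) and for leaf age at each Mn level (right); open diamonds show the value without replicate 3 of old leaves at 5 µM. In old leaves the PR genes move to the right without that library, up to 1.47 for Glyma.15G062500.

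At high Mn, 3 of the 6 genes rose in young leaves, both PR1 copies and PR3, and 1 fell, the NPR1 copy Glyma.09G020800. Of all 28267 tested genes 35.2% passed in young leaves, 29.6% as higher and 5.58% as lower. That split depended on the scaling, since 3402 genes were called higher and 3591 lower after median-of-ratios rescaling, in place of 8379 and 1578. The 3 PR genes that rose stood at or above the 99.7th percentile of log2 changes among tested genes, and PR2 at the 96.3rd. The median log2 change was 2.25 over the 6 genes and 0.27 over all tested genes. Since the 6 were chosen with earlier results of these data known, these standings describe them and are not independent support. Rescaling by median-of-ratios factors brought the median over all genes to -0.01, and the 4 calls and their directions held. Without replicate 1 or without replicate 3 of young leaves at 5 µM, 2 of the 6 genes were called, Glyma.15G062500 and PR3, while all 6 were called without replicate 3 of old leaves at 5 µM, which enters the shared estimate of the spread. All 6 were also called on the young-leaf libraries alone and with weights per group. Calls over all genes rose in those settings too, from 9957. They were 13281 without that old-leaf library, 13599 on the young-leaf libraries alone and 14742 with weights per group. Over all genes, calls fell to 5253 without replicate 3 of young leaves at 5 µM, and to 6183 and 6213 without replicates 2 and 3 at 100 µM, against 9957. The libraries of the Mn levels did not overlap for any of the 6, higher at 100 µM for 5 and lower for 1, against 50.6% higher and 10.7% lower among all tested genes. An exact permutation test of 3 against 3 libraries gave p = 0.1 for each of the 6, the smallest it can give.

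In old leaves 1 of the 6 genes was called, the NPR1 copy Glyma.09G020800, which was lower at 100 µM. Among all tested genes 16.1% were called in old leaves, 10.8% higher and 5.31% lower. Median-of-ratios rescaling gave 2233 higher and 2186 lower genes in place of 3049 and 1502. The same gene was the one of the 6 whose libraries did not overlap between Mn levels, being lower at 100 µM, against 9.06% lower and 20.3% higher without overlap among all tested genes. Replicate 3 at 5 µM held 4.002 to 5.724 times the mean level of its 2 companions for the 4 PR genes, and 1.02 and 1.19 times for the NPR1 copies. Without that library 3 of the 6 genes were called, with Glyma.15G062500 and PR3 higher at 100 µM and Glyma.09G020800 lower, and over all genes 7537 were called in place of 4551. Fewer were called over all genes without replicate 2 (2379) or replicate 3 (2213) of old leaves at 100 µM, where Glyma.09G020800 remained the one gene of the 6 called. The part that this library plays in the old-leaf PR values was not tested beyond leaving it out.

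The Mn response of PR3 differed between leaf ages, the log2 change being 0.75 in old leaves and 3.06 in young leaves. The difference, old minus young, was -2.31 (SE 0.54, adjusted p = 0.037 in limma). It was the only one of the 6 genes called, and 4.67% of all tested genes were called for this difference, 3.75% with a lower and 0.916% with a higher response in old leaves. Rescaling by median-of-ratios factors gave 945 lower and 581 higher genes in place of 1061 and 259. With each library left out in turn, the total ran from 194, without replicate 3 of young leaves at 100 µM, to 3232, without replicate 2 of old leaves at 5 µM, against 1320. For Glyma.15G062400 the difference was -3.56 (95% interval -6.14 to -0.97, adjusted p = 0.098), and for Glyma.15G062500 it was -2.50 (95% interval -4.20 to -0.80, adjusted p = 0.082). PR2 had -1.90 (adjusted p = 0.19), and the NPR1 copies had -0.57 for Glyma.09G020800 (adjusted p = 0.2) and -0.73 for Glyma.15G127200 (adjusted p = 0.074). The PR3 call depended on single libraries and settings, since 13 of 21 alternatives did not make it, with adjusted p-values up to 0.17. It was lost without any 1 of the 6 libraries at 100 µM and without any 1 of the 3 young-leaf libraries at 5 µM. Without replicate 3 of old leaves and replicate 2 of young leaves at 5 µM, a setting chosen after the values were seen, the differences of PR3 (-1.80, adjusted p = 0.0044), Glyma.15G062400 (-3.75, adjusted p = 0.0043) and Glyma.15G062500 (-2.06, adjusted p = 0.0098) were called. Over all genes 1625 were called in that setting, in place of 1320.

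**Figure D4:**
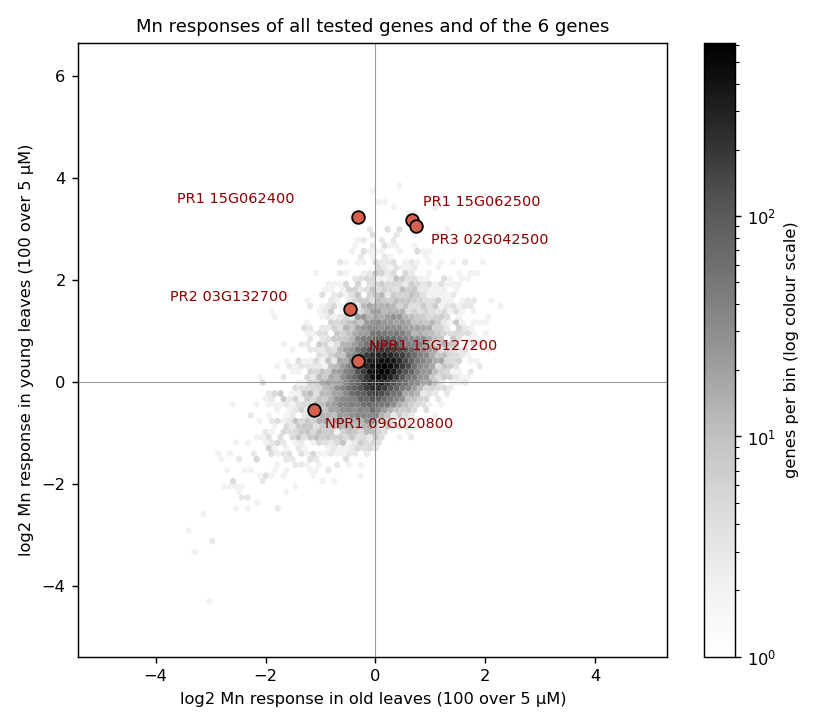
Log2 Mn response in young leaves against that in old leaves for the 28267 tested genes (grey bins, log colour scale) and the 6 genes (red points). Both PR1 copies and PR3 lie between 3.06 and 3.24 on the young-leaf axis and between -0.32 and 0.75 on the old-leaf axis; NPR1 Glyma.09G020800 lies below 0 on both.

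At 5 µM Mn, 5 of the 6 genes were higher in old than in young leaves, both NPR1 copies, both PR1 copies and PR3. Of all tested genes 45.5% passed at this Mn level, 28% as higher and 17.5% as lower in old leaves. After median-of-ratios rescaling 5988 were higher and 6340 lower, in place of 7908 and 4947; the 5 calls held and PR2 was called lower (adjusted p = 0.034 in limma). These 5 genes were also without overlap between leaf ages, as were 32.7% of all tested genes in that direction and 19.4% in the other. Glyma.15G062400 averaged 253.8 ± 268.9 FPKM in old leaves and 5.77 ± 8.36 FPKM in young leaves (SD, n = 3). On the log2 scale old leaves were higher by 5.49 (SE 0.83, adjusted p = 0.00034 in limma). It was 4.66 without replicate 3 of old leaves (adjusted p = 0.001). Glyma.15G062500 averaged 51.9 ± 53.1 FPKM in old leaves and 1.90 ± 1.35 FPKM in young leaves, a log2 difference of 3.81 (SE 0.55, adjusted p = 0.00024). Without replicate 3 its old-leaf mean was 21.33 FPKM and the log2 difference 3.02. PR3 averaged 8.29 ± 7.18 FPKM in old leaves and 0.0991 ± 0.114 FPKM in young leaves, a log2 difference of 2.82 (SE 0.38, adjusted p = 0.00015). Without that replicate the old-leaf mean was 4.142 FPKM and the log2 difference 2.23, and both genes were still called. The NPR1 copies differed less, by 0.86 for Glyma.09G020800 (SE 0.18, adjusted p = 0.003) and by 1.54 for Glyma.15G127200 (SE 0.15, adjusted p = 1.8e-05). PR2 had the opposite sign, with a log2 difference of -1.47 that did not pass (95% interval -2.79 to -0.16, adjusted p = 0.065). It was -2.15 without replicate 3 of old leaves (adjusted p = 0.0079).

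At 100 µM Mn, 2 of the 6 genes differed between leaf ages, with the NPR1 copy Glyma.15G127200 higher and PR2 lower in old leaves. Of all tested genes 40.6% passed at this Mn level, 17.8% as higher and 22.8% as lower in old leaves. Median-of-ratios rescaling gave 6075 higher and 6468 lower genes in place of 5020 and 6459. Glyma.15G127200 averaged 23.3 ± 3.24 FPKM in old leaves and 12.8 ± 1.97 FPKM in young leaves (SD, n = 3), and the log2 difference was 0.81 (SE 0.15, adjusted p = 0.0014 in limma). PR2 averaged 4.04 ± 2.62 FPKM in old leaves and 55.0 ± 38.5 FPKM in young leaves, a log2 difference of -3.37 (SE 0.60, adjusted p = 0.00097). PR2 thus lay at the 38.5th percentile of tested genes by level in old leaves and at the 94th in young leaves. All 3 old-leaf libraries lay above the young-leaf ones for Glyma.15G062400 (log2 difference 1.93, adjusted p = 0.085), Glyma.15G062500 (1.31, adjusted p = 0.077) and PR3 (0.51, adjusted p = 0.31), none of which passed. With Glyma.15G127200 this made 4 genes without overlap and higher in old leaves, against 27.7% of all tested genes, and PR2 was lower without overlap, against 33%. Fitted on the 6 libraries at 100 µM alone, 5 of the 6 genes were called, with the PR1 copies and PR3 higher in old leaves at adjusted p-values of 0.0028, 0.0012 and 0.032. The same 5 genes were called without replicate 3 of old leaves at 5 µM, which again enters through the estimate of the spread. Calls over all genes rose as well, to 13980 in the first of these settings and 14001 in the second, in place of 11479. Among the 22 alternatives, Glyma.15G062400 passed under 7, Glyma.15G062500 under 6 and PR3 under 3. For Glyma.15G062500 these included median-of-ratios rescaling (adjusted p = 0.044 in limma). Each leaf age comparison shares its libraries with the Mn comparisons, so they are not independent of each other.

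The order of the 4 groups differed between the genes. Glyma.09G020800 was highest in old leaves at 5 µM, at 50.9 FPKM, where its libraries lay above all others, while its other 3 groups, from 18.7 to 27.4 FPKM, overlapped with their neighbours in that order. Glyma.15G127200 and Glyma.15G062400 had one and the same order, with old leaves at 5 µM first, then old leaves at 100 µM, young leaves at 100 µM and young leaves at 5 µM. For both, the old-leaf groups overlapped and each later step was without overlap. The first place of Glyma.15G062400 rested on replicate 3 of old leaves at 5 µM. Without that library the group averaged 98.57 FPKM, below the 153.3 FPKM of old leaves at 100 µM. Glyma.15G062500 and PR3 were highest in old leaves at 100 µM, at 60.1 and 12.02 FPKM. Their 3 upper groups overlapped with their neighbours in that order, and young leaves at 5 µM stood apart. Old and young leaves at 100 µM did not overlap for either gene. Without replicate 3, old leaves at 5 µM averaged 21.33 and 4.142 FPKM. These means are below the 23.86 and 8.254 FPKM of young leaves at 100 µM. PR2 ran from 55.0 FPKM in young leaves at 100 µM to 4.04 FPKM in old leaves at 100 µM, with a clear step only below the first group. Without replicate 3 its mean in old leaves at 5 µM was 3.15 FPKM, which would put that group last.

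Across the 12 libraries the log2 levels of the PR1 copies and PR3 moved together, with Pearson's r of 0.949 between the PR1 copies, 0.968 between Glyma.15G062500 and PR3, and 0.87 between Glyma.15G062400 and PR3. PR2 had r of -0.339 to -0.153 with these genes, and NPR1 Glyma.09G020800 had -0.073 to 0.268. The other NPR1 copy, Glyma.15G127200, had r of 0.699 to 0.873 with the PR1 copies and PR3. These values describe 12 libraries that share group, depth and leaf age structure. Outside the 6, the tested gene with the pattern most like each was Glyma.03G138000 for NPR1 Glyma.09G020800 (r = 0.981) and Glyma.07G094100 for Glyma.15G127200 (r = 0.993). For the PR genes it was Glyma.19G239200 for Glyma.15G062400 (r = 0.983), Glyma.08G226100 for Glyma.15G062500 (r = 0.995), Glyma.12G151500 for PR2 (r = 0.971) and Glyma.20G097600 for PR3 (r = 0.994). The second most alike gene of each had r of 0.969 to 0.992. The sources used here give none of these IDs a name.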

How the data were processed

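Gene expression was measured by RNA sequencing in 12 leaf libraries. The authors deposited 1 table of FPKM; the submitters' processing notes name HISAT2 2.1.0, DESeq2 1.6.3 and Bowtie2 2.2.3 without their roles. The counting rule and the treatment of fragments matching several genes were not stated, so values of the NPR1 and PR1 copies are uncertain. How alike the copies are in sequence was not examined. IDs end in Wm82.a2.v1; 0 of 39811 matched the RefSeq gene table of Glycine_max_v4.0, so the pathway lists planned by gene description could not be described, and no sequence is shown. Coordinates were not used here.

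Fragment totals (17774122 to 21070730) and gene lengths were solved from the FPKM steps: for each of the 39811 genes the solved numbers lay within 0.02 of whole ones. In a gene of 1 kb, 1 fragment is worth 0.0475 to 0.0563 FPKM. The method was tested on simulated data.

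Genes with FPKM of at least 1 in at least 3 libraries (28267, all 6 genes included) were analysed as log2(FPKM + 1) in limma 3.58.1 (R 4.3.3), with 4 group means, trended variances and 5 contrasts. Calls are at a Benjamini-Hochberg adjusted p below 0.05 over the 28267 genes, 2-sided. Means ± SD are of FPKM. Exact permutation tests used scipy 1.17.1. Changes in the text understate low genes because of the pseudocount of 1. The members and lists were chosen with earlier results of these data known. For each member the 2 most similar genes by Pearson's r were sought, and the first is named. Alternatives were pseudocounts of 0.1 and 5, no filter, a mean FPKM of at least 5, median-of-ratios factors, a replicate term, the compared libraries alone, weights per group, voom, each library left out, and, added after seeing the data, 2 libraries left out together. No 2 replicates agreed within sampling noise (chi-square per gene at least 9.3).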

Additional observations from a re-analysis of the deposited data

Results flagged for a closer look

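The Mn response of the PR3 chitinase gene Glyma.02G042500 differed between old and young leaves in the test of the difference itself, which is why it is listed here. The difference, old minus young, was -2.31 on the log2(FPKM + 1) scale (SE 0.54, adjusted p = 0.037 in limma, n = 3 libraries per group). The level was 12.02 ± 0.998 FPKM in old leaves at 100 µM and 8.29 ± 7.18 FPKM in old leaves at 5 µM (SD, n = 3). It was 8.25 ± 1.99 FPKM in young leaves at 100 µM and 0.0991 ± 0.114 FPKM in young leaves at 5 µM (SD, n = 3). Replicate 3 of old leaves at 5 µM, at 16.6 FPKM, was above every library at 100 µM, and without it the difference was -1.72 (adjusted p = 0.0095). The call was lost without any 1 of the 6 libraries at 100 µM or of the 3 young-leaf libraries at 5 µM, with adjusted p-values of 0.051 to 0.099. It was also lost with a pseudocount of 5 (adjusted p = 0.17), with no filter (0.052), with voom (0.058) and with the replicate block (0.056). Its size ran from -0.89 with a pseudocount of 5 to -5.97 in voom.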

How the results depend on the processing

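Of 654 single-gene values under alternatives, 585 kept their direction and their side of the threshold, 42 newly passed it, 23 no longer passed and 4 changed sign. The sign changes were those of Glyma.15G062400 (0.51) and Glyma.03G132700 (0.22) for Mn in old leaves, neither called, without replicate 3 of old leaves at 5 µM, alone or together with replicate 2 of young leaves at 5 µM; the cause was not tested. With each library left out in turn, these values ran from -0.79 to 0.51 for Glyma.15G062400 and from -0.998 to 0.217 for Glyma.03G132700. In the same way the number of the 6 genes called ran from 1 to 3 for Mn in old leaves, 2 to 6 for Mn in young leaves, 0 to 2 for the difference between responses, 5 to 6 for leaf age at 5 µM and 2 to 5 for leaf age at 100 µM. Without both named libraries it was 3 for Mn in old leaves, 3 for the difference and 5 for leaf age at 100 µM. For the difference, limma called 0 of the 6 genes with a pseudocount of 5, with no filter, with voom and with the replicate block. In these settings 6, 5, 4 and 5 of them had an unadjusted p below 0.05 in limma. For leaf age at 100 µM, 5 were called on the compared libraries alone and 4 with weights per group. Over all genes those settings called 13980 and 14813, in place of 11479. The cause of these shifts was not tested.

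Replicate numbers did not pair the libraries: deviations from the group means correlated at -0.47 to 0.257 within a number, and 3 of 12 libraries were closest to their own number. The replicate block ended the call of Glyma.09G020800 for Mn in young leaves (limma, adjusted p = 0.066). Over all genes the replicate block left 766 calls in place of 1320 for the difference. Over all genes, Mn calls in old leaves were 1038 on the compared libraries alone and 2280 with weights per group, against 4551, while those in young leaves were 13599 and 14742, against 9957. Depth limits PR3 in young leaves at 5 µM, where 9 fragments were seen in 3 libraries.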
